A study of Mus musculus with 4 samples.

Results

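Regulatory T cell genes were examined in the CD45+ cells of the epididymal white adipose tissue (eWAT). The 8 genes, Foxp3, Il2ra, Ctla4, Ikzf2, Icos, Tnfrsf4, Tnfrsf18 and Klrg1, were taken by name from the 35869 genes listed, and all 8 were found. The mice were WT and were fed normal fat diet (ND) or high fat diet (HFD) for 12 weeks from 8 weeks of age, with 2 samples per diet. Immune cells were drawn with CD45 microbeads from the stromal vascular cells of the fat, so each sample is a mixture of immune cells and not a sort of T cells. The number of mice behind each library is not given in the sources used here, and p-values measure only the spread between these samples. Ptprc, the gene of CD45, was 54.5 and 59.4 TPM in the ND replicates and 55.3 and 53.7 TPM in the HFD replicates. TPM (a transcript's reads per length, scaled to 1 total in all samples) is a relative level.

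Regulatory T cells (Tregs) are CD4 T cells that restrain other immune cells, and the lean visceral fat of mice holds a resident population of them. The transcription factor Foxp3 sets their program, and Ikzf2 (Helios) is a second factor of many of them. They take up IL-2 through a high-affinity receptor that contains the alpha chain, the product of Il2ra. Ctla4 and Icos are receptors of the CD28 family, Tnfrsf4 (OX40) and Tnfrsf18 (GITR) are receptors of the TNF receptor family, and Klrg1 is a lectin-like receptor of differentiated cells. Foxp3 is the defining gene among the 8. The others are also made by activated conventional T cells, and Klrg1 and several of the receptors by NK cells or by group 2 innate lymphoid cells (ILC2). Cd3e, a chain of the T cell receptor complex of all T cells, was the reference for T cells as a whole.

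The promoter bases of 3 members whose levels moved apart in these data, Foxp3 on one side and Il2ra and Ctla4 on the other, are shown because the signal from the IL-2 receptor reaches genes through STAT5. They are the 250 bases before the start of transcription in RefSeq (for Foxp3, the more downstream start) on GRCm38.p6, plus strand, read 5′ to 3′. Capitals mark matches to the STAT motif TTCNNNGAA, on either strand.
Foxp3, chrX:7580233-7580482: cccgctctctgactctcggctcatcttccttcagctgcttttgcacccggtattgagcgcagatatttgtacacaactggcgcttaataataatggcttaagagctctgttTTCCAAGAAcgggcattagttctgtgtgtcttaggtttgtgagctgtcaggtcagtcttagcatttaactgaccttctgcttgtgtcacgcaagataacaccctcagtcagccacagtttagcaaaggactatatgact
Il2ra, chr2:11642542-11642791: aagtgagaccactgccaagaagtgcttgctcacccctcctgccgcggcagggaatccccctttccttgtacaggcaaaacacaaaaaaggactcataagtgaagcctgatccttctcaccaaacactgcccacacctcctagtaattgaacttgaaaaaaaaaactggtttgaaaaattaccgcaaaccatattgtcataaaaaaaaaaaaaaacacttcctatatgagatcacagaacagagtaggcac
Ctla4, chr1:60908775-60909024: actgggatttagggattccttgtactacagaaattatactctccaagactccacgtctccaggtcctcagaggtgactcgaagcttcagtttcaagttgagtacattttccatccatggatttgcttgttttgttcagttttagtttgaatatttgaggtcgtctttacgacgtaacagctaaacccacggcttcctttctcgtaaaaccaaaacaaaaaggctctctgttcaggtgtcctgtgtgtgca
The STAT motif was present at 1 place before this start of Foxp3 and was found neither before Il2ra nor before Ctla4. It does not separate Foxp3 from the members that fell, since it had 0 matches before the other RefSeq start of Foxp3 and 1 before Tnfrsf18, which fell. It was present in 7.02% of the 32851 promoters of the same length. The RUNX motif TGTGGT, held by 14.0% of promoters, and the AP-1 motif TGANTCA, held by 6.75%, had 0 matches in these 3 windows on either strand. The NFAT core GGAAA, which 55.6% of promoters hold, had 1 match in each. The GATA motif AGATAA, which 9.99% of promoters hold, had 1 match in the Foxp3 window shown and 0 before the other Foxp3 start, Il2ra, Ctla4, Tnfrsf4 and Tnfrsf18. RefSeq promoters were found for 5 of the 8 members.

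The ND libraries held approximately 37600000 and 44500000 reads and the HFD libraries 46900000 and 41100000, as estimated from the steps between the values of microRNA genes. The spread between the HFD replicates was 3.49 times what counting reads gives, and that between the ND replicates 1.51 times. The HFD libraries stood apart in spermatid and fibroblast genes. The summed TPM of 6 spermatid genes was 1757 and 1773 with ND, against 6577 in HFD replicate 1 and 2023 in HFD replicate 2. For 6 fibroblast genes the sums were 522 and 561 with ND, against 2837 in HFD replicate 1 and 5686 in HFD replicate 2. The fold changes of the members are therefore also given without either HFD replicate. The part of these transcripts in the results was not tested.

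Of the 8 members, 7 reached 1 TPM in at least 2 samples and were compared between the diets with limma, as log2(TPM + 1). With HFD, 6 of the 7 fell, Il2ra, Ctla4, Icos, Tnfrsf4, Tnfrsf18 and Klrg1, with a Benjamini-Hochberg adjusted p under 0.05 over all 16849 genes tested and a change of at least 1.5-fold. Of all genes tested, 10.3% were called lower and 8.08% were called higher by the same limits. Foxp3 did not pass. In all 8 members both HFD values lay below both ND values, an order that 32.8% of the genes tested also had. The median log2 fold change of the 7 members was -2.20, and that of all genes tested was 0.06. The fold changes of the 6 called members lay below -1.10, the 5th percentile of all genes. In a mixture of cells, fewer cells of a type and less RNA of a gene per cell cannot be told apart.

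**Figure D1:**
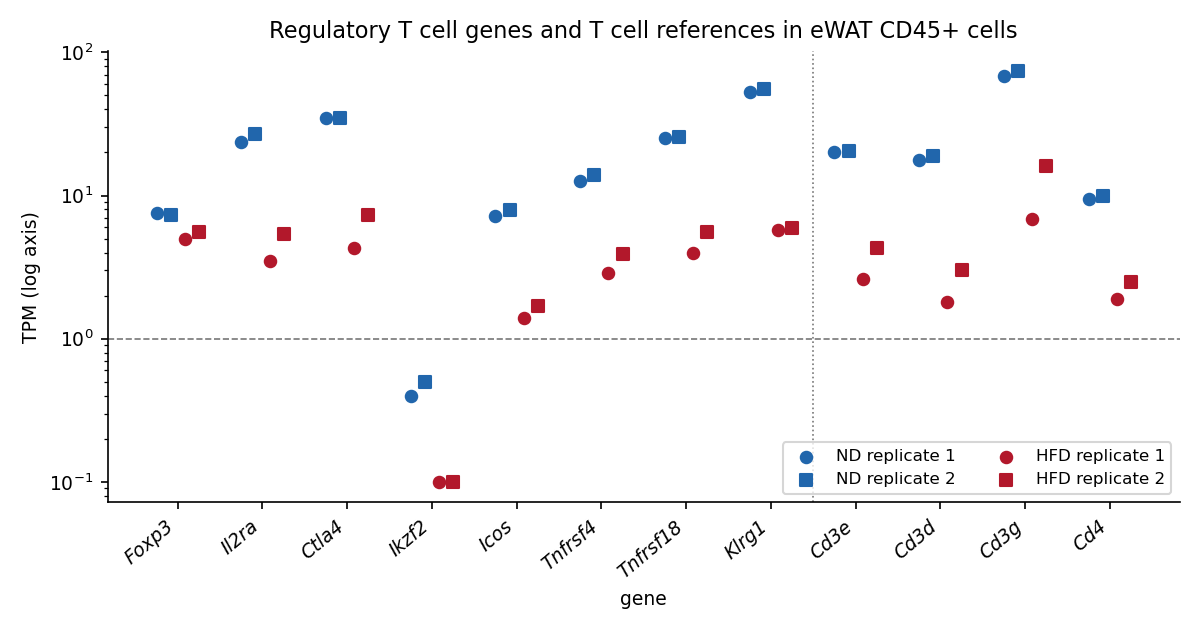
TPM on a log axis of the 8 regulatory T cell genes and of the T cell references Cd3e, Cd3d, Cd3g and Cd4 in each sample (blue, ND; red, HFD; circles, replicate 1; squares, replicate 2; dashed line, the limit of 1 TPM). Foxp3 lay between 5.0 and 7.5 TPM in the 4 samples, while Klrg1 went from 52.9 and 55.5 TPM with ND to 5.7 and 5.9 TPM with HFD.

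Foxp3, the factor that defines the lineage, was 7.5 and 7.3 TPM in the ND replicates and 5.0 and 5.6 TPM in the HFD replicates. The HFD values were lower than both ND values, and the HFD mean was 71.6% of the ND mean. The log2 fold change was -0.42 ± 0.09 (SE), with an adjusted p = 0.0567 in limma, and was under the 1.5-fold limit. On the TPM scale the fall was 1.40-fold. An exact two-sided permutation test of Foxp3 gave p = 0.333, the smallest that 2 samples against 2 allow. The values stand for approximately 489 and 550 reads with ND and 370 and 360 reads with HFD. Without HFD replicate 1 the log2 fold change was -0.35, and without HFD replicate 2 it was -0.49. Without ND replicate 1 it was -0.40, and without ND replicate 2 it was -0.43. All of these were under the 1.5-fold limit.

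Foxp3 lies on the plus strand of chromosome X of mm10, chrX:7573644-7595245, in 18 exon blocks of 4577 bases together in GENCODE vM21. Its last exon runs over exons of Ccdc22, a gene of endosomal sorting that many cell types make, which lies on the minus strand at chrX:7593809-7605517. The genes share 590 exon bases, 12.89% of the exon bases of Foxp3. Gm36995, also on the minus strand and not listed among the genes, shares 373 bases at this end. Ccdc22 was 63.1 and 59.9 TPM in the ND replicates and 69.5 and 71.9 TPM in the HFD replicates, and its log2 fold change of 0.20 was not called (adjusted p = 0.0789 in limma). Foxp3 was 0.119 and 0.122 times Ccdc22 with ND and 0.0719 and 0.0779 times with HFD. Foxp3 also shares 853 exon bases, 18.64% of its own, with Flicr on the same strand, a non-coding gene that is not listed among the genes. At the start of Foxp3, where Flicr lies, it shares 266 exon bases with Ppp1r3f on the minus strand, which was 3.0 and 2.6 TPM in the ND replicates and 1.7 TPM in both HFD replicates. The libraries were stranded, but whether strand was used in counting is not given in the sources used here. Without strand, reads from the shared bases of Foxp3 and Ccdc22 cannot be told apart, and reads from bases shared with Flicr cannot be told apart even with strand. The part of these overlaps in the Foxp3 values was not tested.

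**Figure D2:**
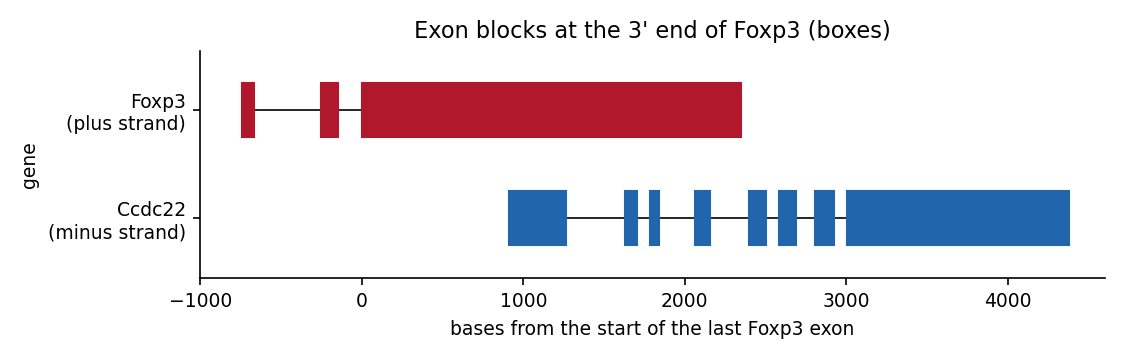
Exon blocks (boxes) of Foxp3 and Ccdc22 at the 3′ end of Foxp3, in bases from the start of the last Foxp3 exon, from GENCODE vM21. The first 4 Ccdc22 boxes from the left lie within the last Foxp3 exon and make up the 590 shared bases.

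Ikzf2, the gene of Helios, was the lowest of the 8. It was 0.4 and 0.5 TPM in the ND replicates and 0.1 TPM in both HFD replicates, under the limit of 1 TPM, and was not tested. With 11613 exon bases, these values still stand for approximately 66.2 and 95.7 reads with ND and 18.8 and 16.3 with HFD. The HFD mean was 22.2% of the ND mean. Values printed to 1 decimal leave this share coarse.

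Il2ra, the alpha chain of the IL-2 receptor, was 23.6 and 27.0 TPM in the ND replicates and 3.5 and 5.4 TPM in the HFD replicates. It fell 5.69-fold on the TPM scale, and its log2 fold change was -2.29 ± 0.22 (SE, adjusted p = 0.0125 in limma). HFD replicate 2 was 1.54 times HFD replicate 1, and both lay far below the ND replicates. The gene lies on the plus strand, chr2:11642807-11693193, in 9 exon blocks.

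Ctla4 is an inhibitory receptor that binds CD80 and CD86 on antigen-presenting cells. It was 34.9 and 34.8 TPM in the ND replicates and 4.3 and 7.3 TPM in the HFD replicates, with no overlap between the diets. Its 6.01-fold fall corresponded to a log2 fold change of -2.43 ± 0.26 (SE, adjusted p = 0.0146 in limma, and 0.0527 with a replicate block). Icos, a costimulatory receptor of the same family, was 7.2 and 7.9 TPM in the ND replicates and 1.4 and 1.7 TPM in the HFD replicates. It fell 4.87-fold, with a log2 fold change of -1.75 ± 0.12 (SE, adjusted p = 0.00789 in limma). The 2 genes are neighbors on the plus strand of chromosome 1, at chr1:60887000-60915832 and chr1:60977927-61000320. Of the 2, Ctla4 had the larger gap between the HFD replicates, with replicate 2 at 1.70 times replicate 1, against 1.21 times for Icos.

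Tnfrsf4, the gene of OX40, was 12.6 and 13.9 TPM in the ND replicates and 2.9 and 3.9 TPM in the HFD replicates. It fell 3.90-fold, the smallest fall among the 6 called members, with a log2 fold change of -1.70 ± 0.16 (SE, adjusted p = 0.0117 in limma). Tnfrsf18, the gene of GITR, was 25.2 and 25.7 TPM in the ND replicates and 4.0 and 5.6 TPM in the HFD replicates. It fell 5.30-fold, with a log2 fold change of -2.20 ± 0.17 (SE, adjusted p = 0.00913 in limma). Both are on the plus strand of chromosome 4, at chr4:156013843-156016612 and chr4:156026164-156028895. Tnfrsf18 shares 414 exon bases, 27.17% of its own, with Gm16008 on the opposite strand, which is not listed among the genes.

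Klrg1, an inhibitory receptor that binds cadherins, was 52.9 and 55.5 TPM in the ND replicates and 5.7 and 5.9 TPM in the HFD replicates. This was the highest level with ND and the largest fall of the members tested, 9.34-fold, with a log2 fold change of -3.02 ± 0.06 (SE, adjusted p = 0.00378 in limma). The HFD replicates differed by 1.04 times, less than for the other 5 called members. The gene lies on the minus strand, chr6:122270596-122282882, in 5 exon blocks.

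Without HFD replicate 1, the log2 fold changes of the 6 called members lay between -3.0 for Klrg1 and -1.54 for Tnfrsf4. Without HFD replicate 2 they lay between -3.04 and -1.83, Icos being the smallest. With 1 HFD sample left, the spread came from the 2 ND samples alone. Without either ND replicate, limma called 0 genes of the 16849 in either direction, with the spread then taken from the 2 HFD samples alone. The folds stayed close to those with all samples, with log2 fold changes of -2.38 and -2.20 for Il2ra, -2.43 and -2.44 for Ctla4 and -3.05 and -2.99 for Klrg1 without ND replicate 1 and 2. At an unadjusted p under 0.05 there were 3862 genes without ND replicate 1 and 4024 without ND replicate 2, and 6 members were among them each time, all lower.

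**Figure D3:**
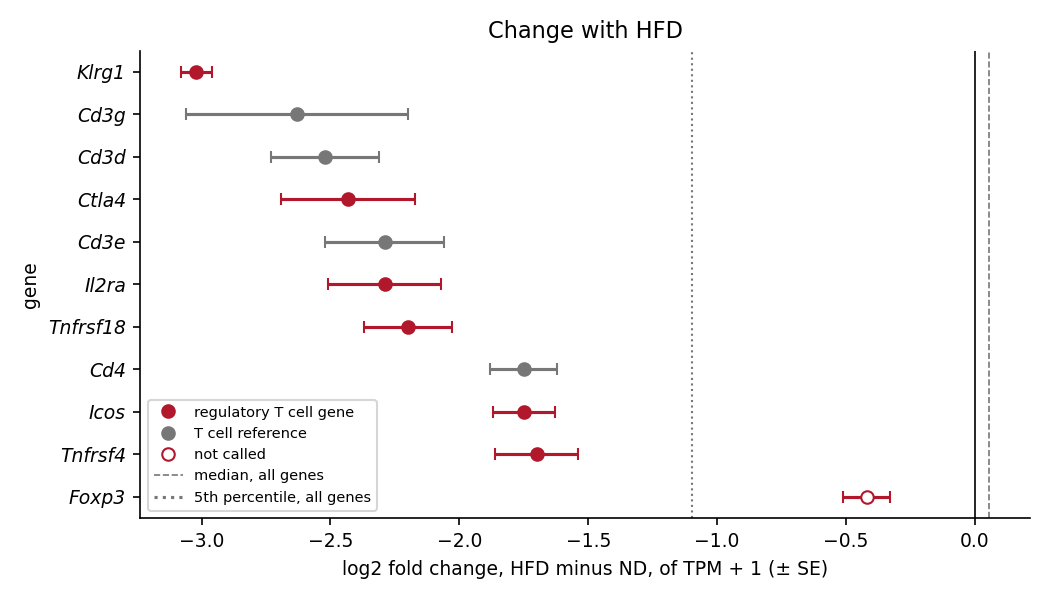
Log2 fold change (HFD minus ND, of TPM + 1) with its SE for the 7 members tested (red) and 4 T cell references (gray), with the median and the 5th percentile of all genes as lines. Foxp3, at -0.42, is the only open symbol (not called), and the other members lie between -1.70 and -3.02, Klrg1 below and Tnfrsf4 above the references, which lie between -2.63 and -1.75.

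The order of the levels per length changed between the diets. With ND, Klrg1 was highest (mean 54.2 TPM), then Ctla4 (34.8), Tnfrsf18 (25.4), Il2ra (25.3), Tnfrsf4 (13.2), Icos (7.55), Foxp3 (7.40) and Ikzf2 (0.45). Tnfrsf18 and Il2ra overlapped, as did Icos and Foxp3, and the other neighbors did not. With HFD, Klrg1 and Ctla4 were both at a mean of 5.80 TPM, followed by Foxp3 (5.30), Tnfrsf18 (4.80), Il2ra (4.45), Tnfrsf4 (3.40), Icos (1.55) and Ikzf2 (0.1). From Ctla4 down to Tnfrsf4, the replicates of each gene overlapped those of its neighbor in the order. Icos lay below all of these in both HFD replicates.

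Cd3e was 20.3 and 20.4 TPM in the ND replicates and 2.6 and 4.3 TPM in the HFD replicates. It fell 5.90-fold, with a log2 fold change of -2.29 ± 0.23 (SE, adjusted p = 0.0132 in limma, and 0.052 with a replicate block). The other chains of the complex fell as well, with log2 fold changes of -2.52 ± 0.21 for Cd3d and -2.63 ± 0.43 for Cd3g (SE). Cd3g was 68.0 and 73.8 TPM with ND and 6.9 and 16.0 TPM with HFD, and its HFD replicates lay apart, with replicate 2 at 2.32 times replicate 1. Cd4, the coreceptor of the T cells to which Tregs belong, was 9.5 and 10.0 TPM in the ND replicates and 1.9 and 2.5 TPM in the HFD replicates, and its log2 fold change was -1.75 ± 0.13 (SE). Of 15 pan-T genes tested, 14 fell, with a median log2 fold change of -1.79 and a range from -2.63 to -0.83 over all 15. Thy1 was the gene that did not pass (log2 fold change -1.23, adjusted p = 0.0585 in limma).

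The change of each gene was then compared with that of Cd3e in the same fit, on log2(TPM + 1) minus that of Cd3e in each sample. By limma 0 of the 7 members were called lower than Cd3e, 0 also at an unadjusted p under 0.05, and 1, Foxp3, was called higher. The same limits called 0.119% of the 16848 genes lower than Cd3e and 96.5% higher, so a call above Cd3e was common to nearly all genes and the call of Foxp3 is no result about it. The 6 other members were not called against Cd3e with all samples, and the limits of the differences are wide. The 95% interval of the difference ran from -0.90 to 0.90 for Il2ra (difference -0.001), from -1.02 to 0.73 for Ctla4 (-0.15) and from -0.81 to 0.99 for Tnfrsf18 (0.09). It ran from -0.46 to 1.54 for Icos (0.54), from -0.36 to 1.53 for Tnfrsf4 (0.59) and from -1.58 to 0.12 for Klrg1 (-0.73, adjusted p = 0.0946 in limma). After the subtraction every gene carries the same deviations of Cd3e from 4 samples, and limma pools these over genes as if they were separate evidence. The p-values and intervals of this comparison, those without a sample and those against Cd4 included, therefore treat the spread as known and do not have the error rate they state. With the SEs of the gene and of Cd3e from the fit of the diets combined, at 3.38 degrees of freedom, an alternative added after the intervals were seen, the 95% interval was -0.94 to 0.94 for Il2ra, -1.17 to 0.87 for Ctla4 and -0.75 to 0.93 for Tnfrsf18. It was -0.22 to 1.30 for Icos, -0.23 to 1.41 for Tnfrsf4 and -1.43 to -0.03 for Klrg1. Klrg1 was then called lower (adjusted p = 0.0468 in a t test with the combined SEs), as 1 of 15 genes of the 16848. Combining the SEs treats the gene and Cd3e as independent, though both were measured in the same samples. These limits are therefore approximate too.

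In the samples themselves, Foxp3 had the largest move against Cd3e of the 7 members tested. Its TPM was 0.369 and 0.358 times that of Cd3e with ND and 1.92 and 1.30 times with HFD. The difference of the log2 fold changes was 1.87, with a 95% interval from 0.92 to 2.83 with the pooled spread (adjusted p = 0.000151 in limma) and from 1.14 to 2.60 with the combined SEs (adjusted p = 0.00477), by which 95.7% of all genes were called higher. Both HFD samples of Foxp3 lay above both ND samples. Without HFD replicate 1 the difference was 1.66, and without HFD replicate 2 it was 2.08. Without ND replicate 1 (1.89, adjusted p = 0.113 in limma) or ND replicate 2 (1.85, adjusted p = 0.119) it was not called. Both HFD values of the level relative to Cd3e lay above both ND values also for Icos and Tnfrsf4, an order that 98.4% of genes had. Without HFD replicate 2 the differences of Icos and Tnfrsf4 from Cd3e were 0.74 and 0.70, and without HFD replicate 1 they were 0.35 and 0.47.

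Klrg1 and Ctla4 had the opposite order, with both HFD values of the level relative to Cd3e below both ND values, which 0.368% of genes had. Klrg1 was 2.61 and 2.72 times Cd3e with ND and 2.19 and 1.37 times with HFD. Ctla4 was 1.72 and 1.71 times Cd3e with ND and 1.65 and 1.70 times with HFD, so its gap was small. The gap was within the counting error of its HFD values, 7.86% and 6.47%. Its difference from Cd3e was -0.15, and -0.05 with a pseudocount of 0.1, so its order is no result about it. Without HFD replicate 1 the difference of Klrg1 from Cd3e was -0.99, and without HFD replicate 2 it was -0.47. In these fits the lone HFD sample is assumed to vary as the ND samples do, which leaves out the gap between the HFD replicates. On the log2(TPM + 1) scale Il2ra and Tnfrsf18 overlapped between the diets, and neither these nor Ctla4 were called without either HFD replicate. The overlap of Tnfrsf18 was slight, and its TPM was 1.24 and 1.26 times that of Cd3e with ND and 1.54 and 1.30 times with HFD, which do not overlap. Il2ra was 1.16 and 1.32 times Cd3e with ND and 1.35 and 1.26 times with HFD.

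**Figure D4:**
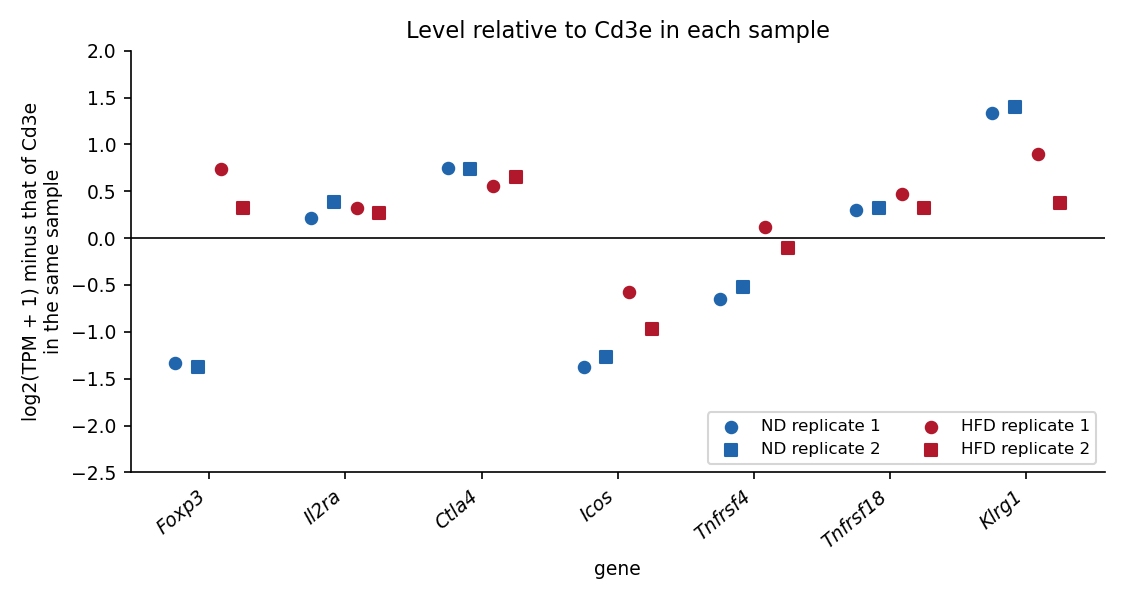
Log2(TPM + 1) of each tested member minus that of Cd3e in the same sample (blue, ND; red, HFD; circles, replicate 1; squares, replicate 2). Foxp3 goes from -1.33 and -1.37 with ND to 0.74 and 0.32 with HFD, Klrg1 goes down from 1.34 and 1.40 to 0.90 and 0.38, and Il2ra and Tnfrsf18 overlap.

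With Cd4 in place of Cd3e as the reference, Klrg1 (difference -1.27) and Ctla4 (-0.68) were called lower than the reference, as were 0.629% of all genes, and 94.0% were called higher. Klrg1 was 5.57 and 5.55 times Cd4 with ND and 3.0 and 2.36 times with HFD. Ctla4 was 3.67 and 3.48 times Cd4 with ND and 2.26 and 2.92 times with HFD. Icos stayed between 0.68 and 0.79 times Cd4 in the 4 samples, and Tnfrsf4 between 1.33 and 1.56 times. Foxp3 was 0.789 and 0.73 times Cd4 with ND and 2.63 and 2.24 times with HFD.

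The 5 genes nearest to Foxp3 in pattern were not on any T cell list, though those lists hold few of the genes compared. Among 10581 genes with a mean ND level of at least 5 TPM, the 5 with the smallest root mean square difference from Foxp3 over the 4 samples, on log2(TPM + 1) centered on the ND mean, were Krtcap2, Fbl, Ccl6, Rps21 and Tmem203. Their differences from Foxp3 were between 0.00446 and 0.0146 on the log2 scale. This is finer than the counting error of Foxp3, which was 4.26% to 5.27% per sample. The ranking therefore finds genes with a fall of like size and does not tell which cells made Foxp3. Fbl, a nucleolar methyltransferase of ribosomal RNA, was 261.0 and 252.4 TPM in the ND replicates and 182.0 and 202.1 TPM in the HFD replicates. Ccl6, a chemokine made by myeloid cells, was 2537.1 and 2424.3 TPM in the ND replicates and 1779.0 and 1954.9 TPM in the HFD replicates. None of the 5 passed the 1.5-fold limit.

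Further genes that Tregs of fat or of other tissues use were taken as a list of 24, of which 21 were tested. With HFD 12 fell, 4 rose and 5 did not pass, with a median log2 fold change of -0.86. The largest fall was in Ccr8, a chemokine receptor of tissue Tregs, which was 44.8 and 43.1 TPM in the ND replicates and 3.7 and 3.1 TPM in the HFD replicates. Its log2 fold change was -3.36 ± 0.10 (SE, adjusted p = 0.00415 in limma), and it was the gene of this list called lower than Cd3e (difference -1.07). Gata3, a type 2 factor, fell 7.82-fold, from 6.5 and 6.8 TPM to 0.8 and 0.9 TPM. Il1rl1, the gene of the IL-33 receptor ST2 that Tregs of fat and ILC2 share, was 22.5 and 24.1 TPM in the ND replicates and 8.5 and 7.3 TPM in the HFD replicates. Maf fell 2.92-fold.

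Of the 4 genes of this list that rose, Prdm1, Pparg and Il10 are also made by macrophages. Prdm1, the gene of Blimp-1, went from 3.6 and 3.9 TPM to 11.5 and 10.9 TPM, and Pparg, a lipid-sensing factor of fat Tregs, macrophages and adipocytes, went from 3.7 and 3.5 TPM to 9.7 and 9.2 TPM. Il10, the gene of the cytokine IL-10, was the most abundant gene of the list, at 428.1 and 445.2 TPM in the ND replicates and 778.2 and 882.1 TPM in the HFD replicates. Il10 was 57.1 and 61.0 times Foxp3 with ND and 156 and 158 times with HFD. Lrrc32, whose product binds latent TGF-beta on Tregs and other cells, rose 1.92-fold.

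Of 10 genes of IL-2 signaling, all tested, 5 fell, 0 rose and 5 did not pass, with a median of -0.75. Il2, the cytokine itself, was 2.3 and 2.6 TPM in the ND replicates and 0.5 and 0.9 TPM in the HFD replicates (log2 fold change -1.03, adjusted p = 0.0315 in limma). The receptor chains fell by unequal amounts, Il2ra 5.69-fold, Il2rb 5.39-fold and Il2rg, which is shared with other cytokine receptors, 1.96-fold. Cish, a target gene of STAT5, fell 3.45-fold, from 27.3 and 27.2 TPM to 7.5 and 8.3 TPM. Stat5a and Stat5b were not called, with 8.3 and 8.9 TPM and 20.1 and 22.1 TPM in the ND replicates against 6.2 and 6.6 TPM and 14.3 TPM in both HFD replicates.

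Of 8 genes of the ligands of the members and of ST2, the receptor encoded by Il1rl1, all tested, 3 fell, 1 rose and 4 did not pass, with a median of -0.64. Icosl, the ligand of Icos, fell 3.49-fold, from 98.8 and 103.6 TPM to 25.4 and 32.6 TPM. Cd86, a ligand of Ctla4, fell 2.02-fold, while Cd80, the other, did not pass (1.91-fold lower on the TPM scale, adjusted p = 0.0507 in limma). Tnfsf4, the ligand of OX40, rose 3.31-fold, from 1.7 and 1.5 TPM to 4.0 and 6.6 TPM, so it and its receptor Tnfrsf4 moved in opposite directions. Tnfsf18, the ligand of GITR, was at most 1.7 TPM and did not pass. Cdh1, a ligand of Klrg1, fell 2.87-fold from 2.1 and 2.5 TPM.

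Of 10 relatives of the members by family, 5 fell, 0 rose and 5 did not pass, with a median of -0.82. Ikzf3 (Aiolos), a relative of Ikzf2, fell 6.42-fold from 9.4 and 10.5 TPM, while Ikzf1 (Ikaros) fell 1.89-fold and Ikzf5 was not called. Tnfrsf25 fell 5.65-fold, and Cd27, another receptor of the TNF receptor family, fell 5.63-fold. Foxp1 and Foxp4, relatives of Foxp3, were not called, with log2 fold changes of -0.36 and -0.21. Pdcd1 was 21.7 and 24.9 TPM in the ND replicates and 4.1 and 9.5 TPM in the HFD replicates, and with this gap between the HFD replicates it was not called (adjusted p = 0.0627 in limma).

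Genes of other lymphoid cells that can make the members moved with HFD too. All 10 NK cell genes fell, with a median log2 fold change of -2.04, and their summed level went from 421 and 443 TPM to 85.6 and 79.9 TPM. Nkg7, the most abundant of them, fell 5.90-fold, and the defining gene Ncr1 fell 7.13-fold from 17.7 and 20.8 TPM. Of 8 ILC2 genes tested, 5 fell, 1 rose and 2 did not pass, and none was at 0. Il5 and Il13, the cytokines of ILC2, were 7.6 and 7.9 TPM and 9.9 and 9.8 TPM in the ND replicates, and 1.0 and 0.9 TPM and 1.8 TPM in both in the HFD replicates. Il7r rose 4.37-fold. The list shares Il1rl1, Gata3 and Rora with the further Treg genes. The part of NK cells and ILC2 in the fall of Klrg1, Il2ra, Icos, Tnfrsf4 and Tnfrsf18 was not tested.

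Of the 5 genes tested of CD4 and CD8 T cells, 4 fell, with a median of -1.31. Cd8a fell 3.33-fold and Cd8b1 4.45-fold, against 4.43-fold for Cd4. All 6 B cell genes tested fell, with a median of -1.66, from sums of 118 and 117 TPM to 23.9 and 28 TPM. Among 6 genes of mature dendritic cells, which carry the ligands of Ctla4, Ccl17 and Ccl22 fell 10.0-fold and 2.19-fold, 0 rose and 4 did not pass. These 2 chemokines are ligands of Ccr4, which fell to 20.0% of its ND mean, from 1.2 and 1.3 TPM. Of 6 macrophage genes, Cd68 and Adgre1 rose 1.82-fold and 1.72-fold, Mrc1 fell 1.78-fold and 3 did not pass. The sum of the macrophage genes was between 2681 and 2964 TPM in the 4 samples, and was 16.3 and 15.8 times that of the 8 members with ND and 110.0 and 83.0 times with HFD.

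**Figure D5:**
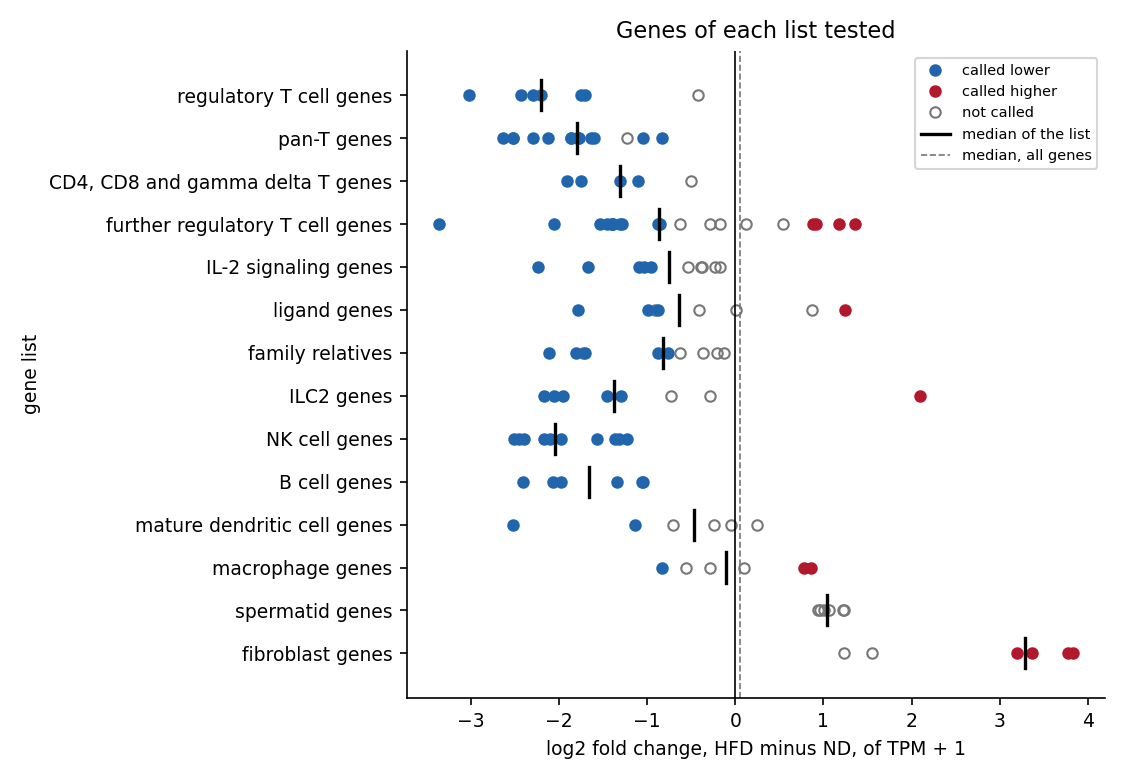
Log2 fold change (HFD minus ND, of TPM + 1) of each gene tested in the 14 lists (blue, called lower; red, called higher; open, not called; bar, median of the list; dashed line, median of all genes). The regulatory T cell genes have a median of -2.20, near the NK cell genes at -2.04, and the pan-T genes have -1.79.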

How the data were processed

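RNA-seq of eWAT CD45+ cells covered 2 ND and 2 HFD samples. The authors prepared stranded mRNA libraries, trimmed reads (Trim Galore 0.4.2, cutadapt 1.9.1), aligned them to mm10 (STAR 2.6.1e), removed duplicates (Sambamba) and counted reads per gene (featureCounts 1.6.2). They deposited TPM, with 1 decimal, for every gene of each sample. The annotation and the use of strand are not given in the sources used here.

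The 16849 genes that reached 1 TPM in 2 or more samples were compared as log2(TPM + 1) with limma 3.58.1 in R 4.3.3 (lmFit, eBayes with a variance trend). Benjamini-Hochberg adjustment ran over all genes, and a call needed an adjusted p under 0.05 together with a 1.5-fold change or more. The added 1 makes fold changes of low genes on this scale smaller than those of TPM. The comparison with Cd3e used the same fit after the value of Cd3e in each sample had been subtracted. Its pooled spread repeats that of Cd3e in every gene. SEs of the gene and of Cd3e from the fit of the diets were therefore also combined, as if independent, chosen after seeing the data. Fold values in the text are ratios of mean TPM, for description. The steps were tested on simulated data. The noise there was independent between genes and equal in both diets, unlike the wider HFD spread here. False calls against Cd3e were not counted there.

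The 8 members and 14 gene lists were chosen with earlier results of these data known. The text names every member, the references Cd3e, Cd3d, Cd3g and Cd4, up to 6 genes per list (the largest called changes and the most abundant) and the 5 genes nearest to Foxp3. Ccdc22, Ppp1r3f and Ptprc, and list genes beyond that rule, were named after their values had been seen. Of the 129 list genes, 128 were listed. Read numbers use exon lengths of GENCODE vM21 for 26762 genes and are approximate. Figures were drawn with matplotlib 3.10.9. The same-numbered samples of the diets did not deviate together (r = -0.015 over 16849 genes), and no pairing was assumed. Alternatives were other pseudocounts (0.1 and 5), filters, scalings, fold limits, references, no variance trend, a replicate block and each sample left out.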

Additional observations from a re-analysis of the deposited data

How the results depend on the processing

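All 6 members called lower were called under the other pseudocounts, scalings and fold limits tried and with no filter. At a mean TPM of at least 5 Icos left the test and the other 5 were called. Under the replicate block 5 members were called, Ctla4 (-2.43, adjusted p = 0.0527 in limma) being lost, as was the call of Cd3e (adjusted p = 0.052), and 812 genes in all against 3098. Leaving out a sample gave 0 to 6 members called lower and 0 to 4241 genes in all, the counts of 0 being those without an ND replicate. The count of all genes called was 1604 at a change of at least 2-fold and 2015 with a pseudocount of 5. For the change relative to Cd3e, leaving out a sample gave 0 to 1 members called lower, 0 to 3 called higher and 7533 to 16628 genes called. There 1 member, Klrg1, was called lower with a pseudocount of 5 (-0.86) and with combined SEs (adjusted p = 0.0468 in a t test). With Cd4 as the reference 2 were, Klrg1 and Ctla4. The members called higher were 2 with a pseudocount of 5 (Foxp3 and Icos) and 2 with no filter, the second being Ikzf2. All genes called relative to Cd3e were 28500 of 29096 tested with no filter and 10400 of 10722 at a mean TPM of at least 5, against 16278, so these counts follow the number of genes tested. Differences from Cd3e near 0 changed sign. Il2ra went from -0.001 to 0.06 with a pseudocount of 0.1, to 0.009 without the 50 most abundant genes, to 0.19 with the mean of Cd3d, Cd3e and Cd3g as the reference, and between -0.09 and 0.09 with a sample left out (0.09 without ND replicate 2, 0.02 without HFD replicate 2). Ctla4 went to 0.05 with the mean of the CD3 chains, and Tnfrsf18 went to -0.05 with a pseudocount of 5 and to -0.45 with Cd4 as the reference. Foxp3 was lower in every setting tried, between -0.49 and -0.27, and was called in none, though its adjusted p was 0.0451 without the 50 most abundant genes, 0.0486 with no variance trend and 0.0403 without HFD replicate 2. With 2 samples per diet and values to 1 decimal, changes of genes near 0.1 TPM are coarse.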
